A study of Danio rerio with 4 samples.

Results

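The 9 genes described here, pax2a, pax2b, pax5, pax8, hmx2, hmx3a, oc90, otomp and stm, are markers of the zebrafish (Danio rerio) otic vesicle, the embryonic inner ear. They were taken by name from a table of 26267 genes measured by RNA sequencing in cells sorted for the sox10:DsRed reporter at 20 hours post fertilization (hpf), and all 9 had values. Their transcripts were summed per gene name, as TPM, a length-corrected abundance that adds up to the same total in every library. The mutant group held 2 samples, named for nr2f2 and nr2f5 in their titles, with nr2f5 given as mutant and nr2f2 as unknown in the genotype field. The wild-type group held 2 samples, and the reporter was shared by all 4. Each sample pooled many embryos, 88 and 35 for the mutants and 110 and 120 for the controls, though which replicate had which number is not given. The samples are labelled as biological replicates, and the study asks about the part of Nr2f nuclear receptors in cranial ectomesenchyme, the crest-derived tissue of the facial skeleton.

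The sox10 reporter is known as a label of neural crest, but the otic placode and vesicle of zebrafish also express sox10, so otic cells can pass a sort of this kind. The vesicle forms from ectoderm beside the hindbrain under Fgf signals. Its cells first turn on Pax2/5/8 family transcription factors, then Hmx homeodomain factors, and later secrete the matrix on which the otoliths, the mineral bodies of the ear, grow. None of the Pax or Hmx genes is limited to the ear. The Pax2/5/8 genes are also known at the midbrain-hindbrain boundary, in hindbrain and spinal interneurons, and, for pax2a and pax8, in the pronephros, and hmx3a is also known in the lateral line and in spinal neurons.

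The mutated gene nr2f5 had 579 and 559 TPM in the wild-type libraries and 46.5 and 47.1 TPM in the mutant libraries, in the direction its label gives. The reporter's own gene, sox10, stood at 590 and 461 TPM in the mutant samples and 411 and 318 TPM in the wild-type samples. Tests ran on log2(TPM + 1) with limma over the 14217 genes whose mean reached 1 TPM. Other cell types differed between samples: the summed level of 12 skeletal muscle markers was 124 to 286 TPM in the mutant samples and 798 to 2442 TPM in wild-type samples. That of 12 epithelial markers was 3756 TPM in wild-type replicate 2 against 937 to 1229 TPM in the other samples, and that of 8 myeloid markers was 21.2 to 31.3 TPM in the mutant samples and 172 to 266 TPM in wild-type samples. Of the tested genes in these lists 5 of 12 muscle, 2 of 12 epithelial and 6 of 7 myeloid genes fell and 0 rose, where 2.95% of all tested genes fell and 1.13% rose. The part of these differences in the values below was not tested. In sorted bulk cells, a difference in the number of otic cells and one in RNA per otic cell cannot be told apart.

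The 9 genes were present at low levels. Summed, they came to 42.6 and 37.3 TPM in mutant replicates 1 and 2, and to 36.6 and 17.6 TPM in wild-type replicates 1 and 2. Only the 17.6 TPM of wild-type replicate 2 lay well apart, and mutant replicate 2 was above wild-type replicate 1 by less than the gap between the mutant replicates. The largest single part of the signal came from oc90. It made up 44.0% and 65.9% of the sum in the mutant samples and 50.4% and 50.5% in the wild-type samples. By mean level over the 4 samples, oc90 (17.7 TPM) was followed by stm (4.58), pax2a (4.08), pax8 (2.38), pax5 (2.00), otomp (1.11), pax2b (0.762), hmx3a (0.706) and hmx2 (0.245 TPM). In every sample oc90 was the highest of the 9, and its range over samples did not meet that of stm. The ranges of stm and pax2a overlapped, as did those of every later pair of neighbours in this order. The last 3 genes fell short of a mean of 1 TPM and were not tested.

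**Figure D1:**
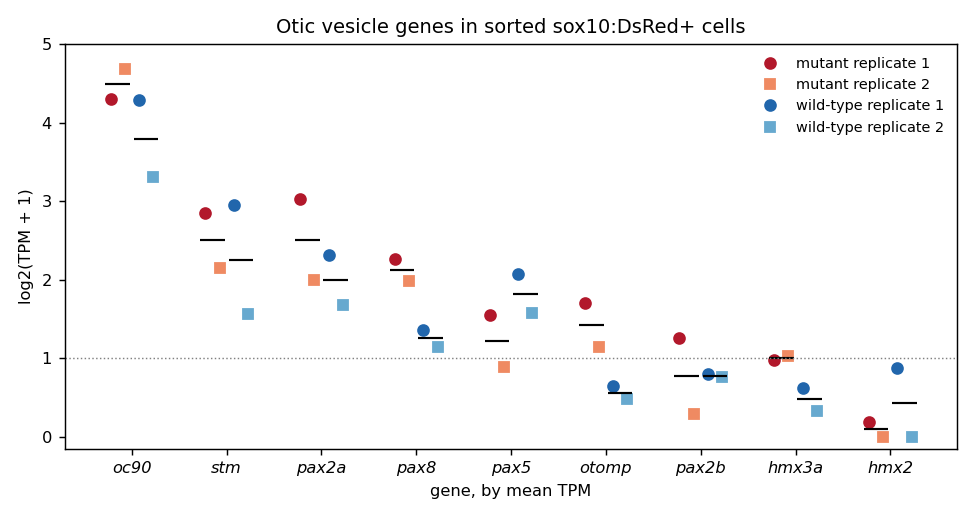
Level of each of the 9 genes as log2(TPM + 1) in each sample (points; circles are replicate 1 and squares replicate 2) with the mean of each group (bars), genes in order of mean TPM; the dotted line is at 1 TPM. The oc90 points lie above all others, both mutant points lie above both wild-type points for oc90, pax8, otomp and hmx3a, and below them for pax5.

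Among the Pax genes, pax8 had the clearest separation of the groups. In fish pax8 is one of the earliest genes of the otic placode, needed with the pax2 genes for cells to take on otic fate. Its level was 3.79 and 2.94 TPM in mutant replicates 1 and 2, and 1.57 and 1.22 TPM in wild-type replicates 1 and 2. Both mutant samples were higher, and the gap between groups was larger than that within either group. The log2 fold change was 0.86 ± 0.39 (limma, moderated SE, n = 2 per group), with a 95% interval from 0.0027 to 1.73. It did not pass after Benjamini-Hochberg adjustment over all genes (adjusted p = 0.24), the lowest adjusted p of the 9 genes, and lay between 0.72 and 1.00 when 1 sample was left out.

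The gene pax2a follows pax8 in the placode, persists in the vesicle and is known for a role in hair cell formation. It stood at 7.14 and 2.98 TPM in the mutant samples and 3.98 and 2.22 TPM in the wild-type samples. Mutant replicate 1 was high and the other mutant sample lay between the wild-type values, so the groups overlapped. The log2 fold change was 0.51 ± 0.44 (95% interval -0.48 to 1.498, limma adjusted p = 0.54). Leaving out mutant replicate 1 gave -0.0085 and leaving out mutant replicate 2 gave 1.02, while the values were 0.82 and 0.19 with wild-type replicates 1 and 2 left out. The table lists 13 pax2a transcripts, of which 4 were at 0 in all samples. The transcript ENSDART00000076998 was the most abundant on average, with 44.5% and 28.9% of the gene's TPM in the mutant samples and 60.4% and 55.0% in the wild-type samples. Its share was lower in both mutant samples, which was not tested.

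The gene pax5, which acts in the anterior vesicle where the utricular sensory patch forms, went the other way in level. It stood at 1.93 and 0.860 TPM in the mutant samples and 3.22 and 1.98 TPM in the wild-type samples. Both mutant values were lower, but mutant replicate 1 and wild-type replicate 2 were nearly level. The log2 fold change was -0.60 ± 0.43 (95% interval -1.56 to 0.36, limma adjusted p = 0.46). It was -0.93 to -0.27 when 1 sample was left out, with the end nearest 0 without mutant replicate 2. With all samples it was -0.48 under median-ratio scaling and -0.21 under quantile normalization. Within each library, which removes any scaling between libraries, pax5 was 0.271 and 0.289 times pax2a in the mutant samples and 0.808 and 0.892 times pax2a in the wild-type samples. This ratio, chosen after the values were seen, was close between replicates and differed between the groups. For 42.3% of all other tested genes the level divided by that of pax2a was likewise lower in both mutant samples.

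The duplicate gene pax2b, which acts in part redundantly with pax2a in the ear, stood at 1.39 and 0.222 TPM in the mutant samples and 0.742 and 0.697 TPM in the wild-type samples. The mutant replicates lay on either side of the wild-type pair. In sum, the 4 Pax genes reached 14.2 and 7.004 TPM in the mutant samples and 9.50 and 6.11 TPM in wild-type samples, and these values overlapped.

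The Hmx genes, homeodomain factors of the vesicle and lateral line, were the lowest of the set. On the RefSeq assembly GRCz12tu, hmx2 and hmx3a are direct neighbours. The gene hmx3a, required in zebrafish for the ear and lateral line, stood at 0.979 and 1.04 TPM in the mutant samples and 0.544 and 0.261 TPM in the wild-type samples, and both mutant samples were higher. Its level, like that of hmx2, sums 2 gene IDs. The less abundant hmx3a ID overlapped between groups, at 0.439 and 0.0865 TPM in the mutant samples and 0.196 and 0.136 TPM in the wild-type samples. The gene hmx2 was listed at 0 in mutant replicate 2 and wild-type replicate 2, at 0.146 TPM in mutant replicate 1 and at 0.833 TPM in wild-type replicate 1. These neighbours therefore did not share their order of samples. With no filter on low values, limma gave adjusted p = 0.44 for hmx3a, 0.60 for hmx2 and 0.99 for pax2b.

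The 3 otolith matrix genes encode secreted proteins of the ear and mark it more narrowly than the Pax and Hmx genes. The gene otomp encodes otolith matrix protein, needed for otolith growth. It stood at 2.27 and 1.202 TPM in the mutant samples and 0.565 and 0.396 TPM in the wild-type samples. Both mutant samples were higher, at levels where the log2(TPM + 1) scale understates a change. The log2 fold change was 0.86 ± 0.45 (95% interval -0.15 to 1.87, limma adjusted p = 0.32), and without mutant replicate 1 the mean of otomp fell short of the 1 TPM needed for a test.

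The gene stm encodes Starmaker, which shapes the otolith crystal. It stood at 6.21 and 3.46 TPM in the mutant samples and 6.72 and 1.95 TPM in the wild-type samples. The wild-type replicates spanned both mutant values. The log2 fold change of 0.25 ± 0.49 (95% interval -0.85 to 1.35, limma adjusted p = 0.80) became -0.10 and 0.60 with mutant replicates 1 and 2 left out, and 0.94 and -0.45 with wild-type replicates 1 and 2 left out. Of its 4 transcripts, ENSDART00000105174 had the highest mean and was present in every sample, at 4.07 and 1.98 TPM in the mutant samples and 2.93 and 1.58 TPM in wild-type samples. The transcript ENSDART00000145710, at 1.55, 1.47 and 1.62 TPM elsewhere, was listed at 0 in wild-type replicate 2.

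The gene oc90 encodes the zebrafish otoconin-like protein of the otolith core, which acts in the seeding of otoliths. It stood at 18.7 and 24.6 TPM in the mutant samples and 18.5 and 8.87 TPM in the wild-type samples. Mutant replicate 1 and wild-type replicate 1 were almost equal, and the separation of the groups rested on wild-type replicate 2. The log2 fold change was 0.70 ± 0.34 (95% interval -0.071 to 1.46, limma adjusted p = 0.29). It was 0.21 without wild-type replicate 2 and 1.19 without wild-type replicate 1.

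The table gives oc90 under 2 gene IDs, with unlike values. The more abundant, ENSDARG00000001721, stood at 14.96 and 19.1 TPM in the mutant samples and 17.9 and 8.33 TPM in the wild-type samples. Its values overlapped between groups (log2 fold change 0.43 ± 0.36, limma fit per gene ID, adjusted p = 0.52). The other, ENSDARG00000111394, stood at 3.77 and 5.54 TPM in the mutant samples and 0.551 and 0.543 TPM in the wild-type samples. Both mutant samples were several times higher, and the ID rose in the fit over 15690 gene IDs (log2 fold change 1.85 ± 0.40, limma adjusted p = 0.032). This ID reached a mean of 1 TPM only through the mutant samples, so the filter favoured a higher mutant level. It held 20.1% and 22.5% of the oc90 signal in the mutant samples and 2.99% and 6.13% in the wild-type samples. That the IDs differ in their change was not tested in itself, and the ID was singled out after its values were seen. The call was lost when any 1 sample was left out: adjusted p was 0.14 and 0.29 without mutant replicates 1 and 2, and 0.11 and 0.099 without wild-type replicates 1 and 2. The share of gene IDs that rose in the same fit was 1.84%, and 6.52% among the 1564 tested IDs that share a gene name with a more abundant ID. Values for IDs of one name are uncertain, because reads that match both can be split between them in the estimate. The table does not say whether the second ID is another copy of the same gene in the assembly, so its rise and share cannot be told apart from a different split of reads between copies.

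**Figure D2:**
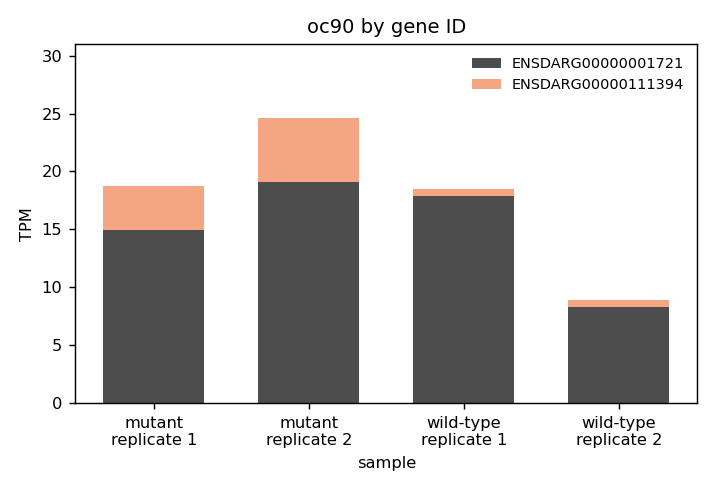
TPM of oc90 in each sample (bars from 0), divided between the 2 gene IDs that carry its name. The lighter part, ENSDARG00000111394, is 3.77 and 5.54 TPM in the mutant samples and 0.551 and 0.543 TPM in the wild-type samples, whereas the darker part overlaps between groups.

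Across the set, 0 of the 6 tested genes rose and 0 fell at an adjusted p under 0.05 (limma), where 1.13% of all tested genes rose and 2.95% fell; 1 of the 6, pax8, had an unadjusted p under 0.05, against 20.4% of all tested genes. Each of the 12 alternative fits per gene name, with another scaling, filter, pseudocount or moderation or without 1 sample, also called 0 of them. Over all genes, the fit with no filter called 4 and that without trend and robust moderation called 0. Neither could readily have called an otic gene, and only oc90 was tested at a mean of 5 TPM or more. Both mutant samples lay above both wild-type samples for pax8, oc90 and otomp, and below them for pax5, against 18.2% and 34.9% of all tested genes. Of these, otomp reached the mean of 1 TPM only through the mutant samples, so nothing is read from its place in this count or in the median. The log2 fold changes of the tested genes had a median of 0.60, which describes only the genes that passed the filter, while that of all tested genes was -0.16. The intervals remained wide. Those of pax2a, pax8 and oc90 reached 1.46 or more, so changes of that size were not excluded by these 4 samples. Median-ratio scaling brought the median of all genes to 0.00, and quantile normalization brought it to 0.03. Under both, each of the 6 genes kept the sign of its change. Nothing is read from the sign of otomp, which the filter favoured.

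**Figure D3:**
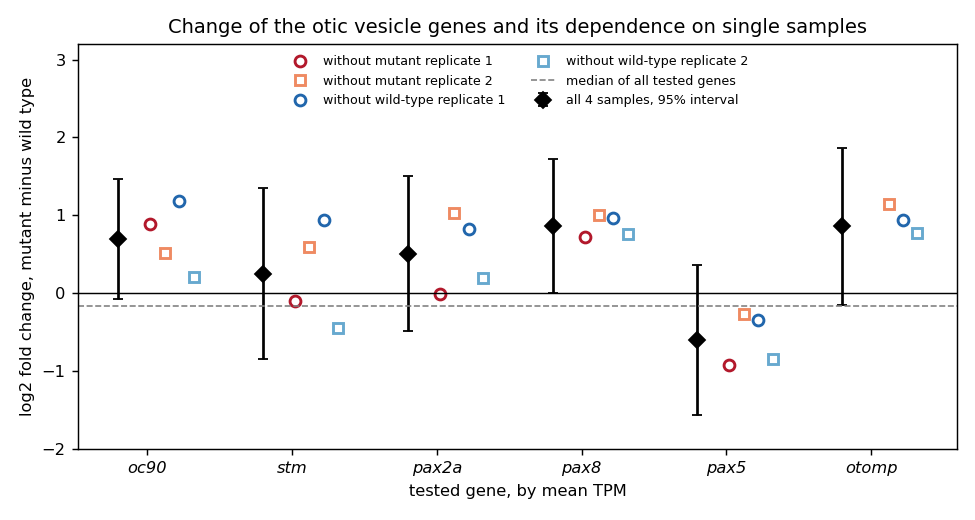
Log2 fold change, mutant minus wild type, of the 6 tested genes with all samples (diamonds, with 95% intervals from limma) and with each sample left out in turn (open symbols), beside the median of all tested genes (dashed, at -0.16). The pax8 values stay between 0.72 and 1.00, while those of stm run from -0.45 to 0.94; otomp has no value without mutant replicate 1.

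Set against sox10 in the same library, the 9 genes together amounted to 7.22% and 8.09% of the sox10 level in mutant replicates 1 and 2, and to 8.90% and 5.53% in wild-type replicates 1 and 2. The wild-type samples spanned both mutant samples. On this scale pax8 was 6.42 and 6.39 per 1000 of sox10 in the mutant samples and 3.804 and 3.84 in the wild-type samples. The replicates of each group were nearly equal and the groups lay apart. For otomp the values were 3.85 and 2.61 per 1000 of sox10 in the mutant samples against 1.37 and 1.24 in the wild-type samples. As otomp passed the filter only through the mutant samples, nothing is read from its place here. The gene pax5 lay the other way from pax8, at 3.28 and 1.87 per 1000 of sox10 in the mutant samples against 7.82 and 6.22 in the wild-type samples. For oc90, stm and pax2a the groups overlapped on this scale. The comparison was chosen after the values were seen. Relative to sox10, 2.84% of the other tested genes were higher in both mutant samples and 68% were lower in both.

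The spread between the wild-type replicates ran one way for the whole set. All 9 genes were listed higher in wild-type replicate 1 than in wild-type replicate 2, against 63.3% of all tested genes. For pax2b the values were nearly level, at 0.742 and 0.697 TPM. This share and the next leave out genes below a mean of 1 TPM, as 3 of the 9 were. In the mutant samples 7 of the 9 were higher in replicate 1, against 59.1% of all tested genes. The exceptions were oc90 and hmx3a, which were higher in mutant replicate 2. Wild-type replicate 2 is also the library with the 3756 TPM of epithelial markers, led by the periderm keratin gene krt4 (chosen after its values were seen) at 2040 TPM. The part of those cells in its low otic values was not tested.

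Other genes of ear development were read from lists chosen with earlier results of these data known. Of 7 genes of preplacodal ectoderm and otic competence, all tested, 0 rose and 2 fell (1.13% and 2.95% of all tested genes), dlx3b and dlx4b, homeobox genes that help to make ectoderm competent for otic induction and that are also expressed in arch mesenchyme. The gene dlx3b stood at 17.2 and 27.6 TPM in the mutant samples and 75.5 and 127 TPM in wild-type samples (limma adjusted p = 0.0075), and dlx4b at 4.55 and 6.20 against 24.5 and 55.5 TPM (adjusted p = 0.0069). The dlx3b call was lost under median-ratio scaling (adjusted p = 0.058), and that of dlx4b without mutant replicate 1 (0.070) or 2 (0.059). Of the other 5, foxi1, which lies upstream of pax8 in otic induction, stood at 0.698 and 0.721 TPM in the mutant samples and 0.620 and 3.21 TPM in wild-type samples. The list's median log2 fold change was -0.61, which is the value of foxi1 itself. As foxi1 reached the mean of 1 TPM only through wild-type replicate 2, nothing is read from this median. Of the 7 genes, 1 was higher and 5 were lower in both mutant samples, against 18.2% and 34.9% of all tested genes.

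Of 15 tested genes among 17 other transcription factors of the vesicle, 0 rose and 2 fell, with a median of -0.02; the shares of all tested genes were 1.13% and 2.95%, here and for the lists that follow. The falls were those of tbx2b (25.4 and 33.7 TPM in the mutant samples, 65.2 and 60.7 TPM in wild-type samples, limma adjusted p = 0.021) and sox9a (11.02 and 8.58 against 25.0 and 22.9 TPM, adjusted p = 0.036). Both genes are also expressed in arch crest. The tbx2b call was lost without mutant replicate 1 (0.12) or 2 (0.065), and the sox9a call when any 1 sample was left out (0.057 to 0.23) and under quantile normalization (0.052). Of 11 genes for Fgf ligands and feedback, 8 were tested and 1 fell: fgf10a, a ligand gene that acts in otic induction in mouse. It stood at 0.649 and 0.0274 TPM in the mutant samples and 5.49 and 7.48 TPM in wild-type samples (limma adjusted p = 0.012). The log2 fold change was -2.51, and -2.17 without mutant replicate 2, where the call was lost. This gene reached the mean of 1 TPM only through the wild-type samples, so the filter favoured a lower mutant level.

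Genes of later ear differentiation ranged widely in level. Among 11 other genes of otolith and inner ear matrix with values, otol1a and zpld1a were listed at 0 in all samples and the tectorin genes tecta and tectb at 0.0847 TPM or less. Of these 11, 4 were tested, and 0 rose and 0 fell. The most abundant was sparc, a matrix protein gene that is widely expressed outside the ear, with 51.6 and 82.9 TPM in the mutant samples and 73.0 and 72.1 TPM in the wild-type samples. Of 16 hair cell genes 6 were tested, and 0 rose and 0 fell. The hair cell determination gene atoh1a stood at 16.3 and 8.83 TPM in the mutant samples and 4.90 and 1.55 TPM in wild-type samples (log2 fold change 1.75 ± 0.46, limma adjusted p = 0.069), and atoh1b at 36.9 and 25.2 against 19.1 and 4.61 TPM (1.57 ± 0.63, adjusted p = 0.25). In both, all mutant values were higher and wild-type replicate 2 was lowest, the same sample as for oc90, stm, pax2a, pax8, otomp and hmx3a. These were the only 2 of the 6 tested hair cell genes higher in both mutant samples, and another 2 were lower in both. The shares of all tested genes were 18.2% and 34.9%, and the list's median log2 fold change was 0.05. The atoh1 genes are also expressed in the hindbrain rhombic lip, and pou4f3, which marks differentiated hair cells, was listed at 0 in 3 samples and at 0.0706 TPM in mutant replicate 2. Of 8 genes of otic neuroblasts with values, 7 were tested and 0 passed. Among these 7, 1 was higher and 4 were lower in both mutant samples, against the same shares of all tested genes.

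Markers of the other places where these Pax and Hmx genes are known were also present. Of the midbrain-hindbrain boundary list, 9 of 10 genes with values were tested and 0 passed, with a median of 0.31; its sum was 91.0 and 63.4 TPM in the mutant samples and 75.5 and 66.9 TPM in wild-type samples, mostly from gbx2. Within it, wnt1 (5.02 and 5.06 against 2.42 and 0.163 TPM) and her5 (1.84 and 1.87 against 0.0896 and 0.214 TPM), chosen after their values were seen, were higher in both mutant samples, with limma adjusted p = 0.12 and 0.14. The gene her5 reached the mean of 1 TPM only through the mutant samples. Nothing is therefore read from its test or from its place in the median or in the next count. Of the 9 tested genes, 3, her5 among them, were higher and 1 was lower in both mutant samples, against 18.2% and 34.9% of all tested genes. The pronephros list summed to 14.8 and 9.70 TPM in the mutant samples and 16.4 and 9.57 TPM in wild-type samples. Its most abundant tested genes were trpm7 (4.67 and 5.18 against 8.40 and 4.87 TPM) and hnf1bb (4.47 and 1.03 against 0.557 and 0 TPM). As hnf1bb reached the mean of 1 TPM only through the mutant samples, nothing is read from its higher mutant level. The tubule cadherin gene cdh17, chosen after its values were seen, was at 0.727 TPM or less. The interneuron list summed to 61.8 to 130 TPM, of which most was the general neuronal gene elavl3. In the pronephros, interneuron, optic stalk, epibranchial placode and lateral line lists 0 genes passed, and of the 3 tested thyroid genes hhex, also an endothelial gene, fell (adjusted p = 0.033; lost without mutant replicate 1, at 0.079, mutant replicate 2, at 0.23, or wild-type replicate 2, at 0.083, and with quantile normalization, at 0.061). These levels do not say which cells the Pax and Hmx transcripts came from.

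**Figure D4:**
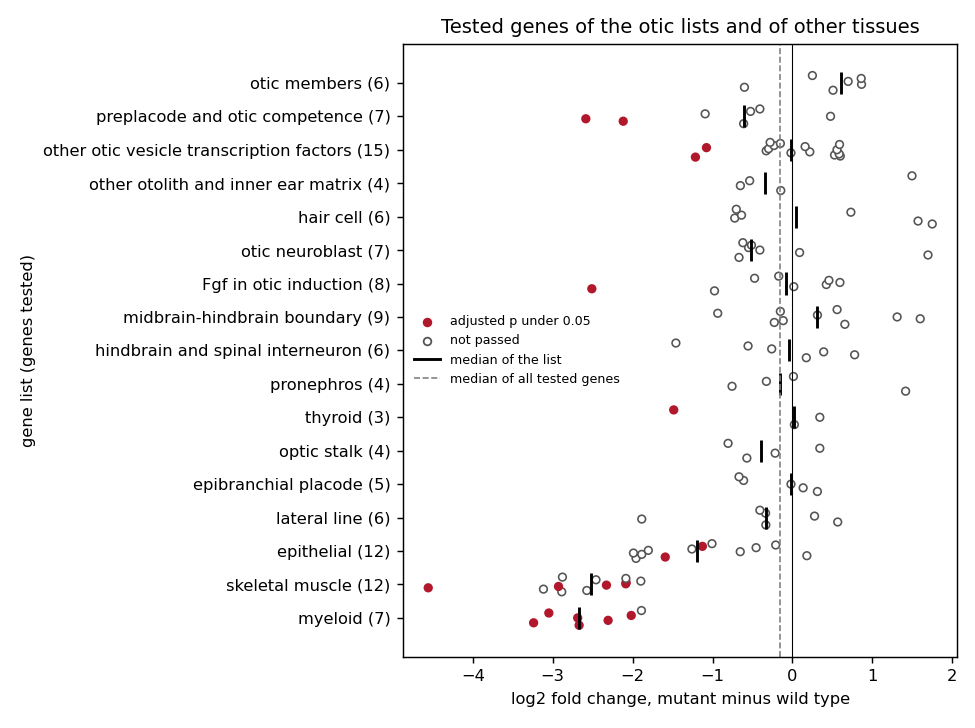
Log2 fold change, mutant minus wild type, of each tested gene (points; filled at an adjusted p under 0.05) in the lists of ear genes, of other tissues and of other cell types, with the median of each list (bars) and of all tested genes (dashed, at -0.16). The 6 otic vesicle genes, all open, have a median of 0.60; the filled points of muscle and myeloid genes lie at the left.

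The genes whose profile over the 4 samples was nearest to that of the summed otic signal were si:dkey-208m12.2, unc5c, si:ch73-144d13.4, tmed1b and znf1045. Nearness was measured as the root mean square difference of log2 values centred on their mean, and was 0.030 for the first and 0.082 for the fifth, against a median of 0.55 over 14211 genes. With 4 samples many genes share a profile: 14 lay within 0.1. Of the 5, unc5c encodes a netrin receptor; it stood at 3.43 and 2.77 TPM in the mutant samples and 2.96 and 0.903 TPM in the wild-type samples.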

How the data were processed

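RNA of the sorted cells was converted to cDNA with the SMARTer kit and amplified, per the labels' protocols. The authors deposited 1 table of TPM for 65905 Ensembl transcripts with a column per sample. Per the submitters' processing notes, kallisto was used and the build was GRCz11; versions and the annotation release are not given in the sources used here. Each column summed to 1e+06 over 57775 transcripts, and the other 8130 had empty cells. TPM keeps no depth, so depth is unknown and no counting interval or count model was used, and a gene at 0 is called listed at 0. Amplification and the unknown depth limit most the genes at a few TPM described here.

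Transcripts were summed per gene name (per gene ID where blank; 3701 names join several IDs). Genes whose mean reached 1 TPM were tested as log2(TPM + 1) with limma 3.58.1 in R 4.3.3 (trend and robust moderation, statmod 1.5.0). The tests were mutant against wild type, two-sided, with Benjamini-Hochberg adjustment over 14217 genes and a threshold of 0.05. The procedure was checked on simulated data, with changes placed only in genes of higher level. Of the 9 genes only oc90 lay in that range, so the check does not cover the others. On the log2(TPM + 1) scale the changes of low genes are understated. P-values set a change against the spread between samples of a group, which limma moderates toward that of genes of like level. The genes, lists and tests were chosen with earlier results of these data known. The rule for named genes gave the 9 genes; up to 4 called genes of each list, or otherwise its 2 most abundant; the 5 nearest in profile; and nr2f5, nr2f2 and sox10. Other genes in the text were chosen after their values were seen. The gene nr2f2 had 67.2 and 51.7 TPM in the mutant samples and 73.5 and 59.3 TPM in the wild-type samples. Alternatives were other pseudocounts, filters, scalings and moderation, the replicate block, sums per gene ID and leaving out each sample. No sequences of these genes were used here.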

Additional observations from a re-analysis of the deposited data

How the results depend on the processing

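On all 4 samples, the count of called otic genes was 0 under every alternative run except sums per gene ID. There it was 1, the second oc90 ID. That ID passed the filter only through the mutant samples, and 1.84% of all tested gene IDs rose in the same fit. The share was 6.52% among IDs that share a name with a more abundant ID. Only oc90 was tested at a mean of 5 TPM or more, and otomp was not tested without mutant replicate 1. The fold changes of oc90, pax5 and pax8 kept their sign throughout. That of otomp did so where tested. As otomp passed the filter only through the mutant samples, nothing is read from its sign. When 1 sample was left out, the log2 fold change ran from -0.0085 to 1.02 for pax2a, from -0.45 to 0.94 for stm, from -0.080 to 0.94 for the more abundant oc90 ID, and from 0.12 to 1.14 for the summed level (0.63 with all samples, 0.44 without oc90). Over all genes 580 were called (27.8% of them rises), 4 with no filter, 0 without trend and robust moderation (2531 at an unadjusted p under 0.05, against 2900) and 110 to 720 without 1 sample (110 without mutant replicate 2, 195 without mutant replicate 1); rises were 47.3% of calls with median-ratio scaling and 48.1% with quantile normalization. A count of 0 does not show that the otic genes had equal levels. The sample titles give replicate numbers but do not say whether same-numbered samples were handled together. The deviations of same-numbered samples from their group means had a correlation of -0.012 across genes, which cannot decide this. With the replicate block 565 genes and 0 otic genes were called, and hhex had adjusted p = 0.051 (limma). The second oc90 ID then had adjusted p = 0.059 (limma), against 0.058 without trend and robust moderation and 0.12 with no filter. With no filter or without trend and robust moderation, the named falls of dlx3b, dlx4b, tbx2b, sox9a, fgf10a and hhex were also not called.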
